A study of Mus musculus with 6 samples.

Results

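The inhibitor of DNA binding (ID) genes and the bone morphogenetic protein (BMP) pathway upstream of them were examined in 4T1 cells, an established mouse mammary carcinoma line. The set comprised 10 of the 24346 gene symbols listed: Bmp4, Bmpr1a, Bmpr2, Smad1, Smad5, Smad6, Id1, Id2, Id3 and Id4. They were chosen by symbol for their place in this pathway, and all 10 were present. The study depleted the long noncoding RNA AU021063 and sequenced polyadenylated RNA. There were 3 groups of 2 libraries: WT, the parental line after a mock transfection, and shRNA1 and shRNA3, which carried different short hairpin RNAs against AU021063. No group with a non-targeting hairpin is named, so carrying a hairpin and losing AU021063 cannot be told apart, and nothing states whether a group's libraries came from separate cultures. The p-values therefore describe no more than how far these libraries vary, and that variation may be technical. Both hairpin groups were compared with the same WT libraries.

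BMP ligands bind pairs of type I and type II serine/threonine kinase receptors, which phosphorylate SMAD1 and SMAD5; these enter the nucleus with SMAD4 and act on target genes. The ID genes are classical targets of this route. ID proteins have a helix-loop-helix domain but no DNA-binding region, so they hold E proteins in inactive dimers, and they are known for their part in differentiation, the cell cycle and the outgrowth of breast cancer metastases.

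The 4 ID genes did not move together. Id2 rose 1.69-fold with shRNA1 and 1.72-fold with shRNA3. Id1 fell 2.36-fold and Id3 fell 1.54-fold with shRNA3, whereas neither passed the test with shRNA1, and for both genes the difference between the hairpins passed it. Id4, the least abundant of the family, rose 1.92-fold with shRNA1. Receptors and SMADs moved by at most 1.42-fold in any comparison, and Bmp4 was listed at 0 in every library. Folds are ratios of mean FPKM (fragments per length of transcript and per mapped fragments of the library), and tests were made with limma on log2(FPKM + 1).

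AU021063 (chr15:101221247-101222155, plus strand, GRCm38) was listed at 1.82 and 1.67 FPKM in WT, 1.05 and 0.572 in shRNA1, and 0.785 and 0 in shRNA3. These values stood for only 11 and 10, 6 and 3, and 5 and 0 fragments. The rate per library depth was 0.469 of WT with shRNA1 (95% interval 0.189 to 1.07) and 0.243 with shRNA3 (0.0716 to 0.662), so a decrease with shRNA1 was not detectable at this depth; such intervals cover counting error only. Libraries summed to 560862 to 604022 FPKM, and their depth was 86.8% to 105% of that of WT replicate 1. The 5 epithelial markers were all detected. They summed to 929 and 962 FPKM in WT, 1090 and 1021 in shRNA1, and 737 and 734 in shRNA3. Krt8 and Krt18 made up nearly all of this sum, and the epithelial cadherin gene Cdh1 reached only 1.22 to 1.84 FPKM. The epithelial markers did not move together with shRNA3, where 2 passed the test as lower and 1 as higher. Mean Krt8 went from 428 FPKM in WT to 265, and mean Epcam from 2.11 to 3.27. The 4 leukocyte markers summed to 6.51 and 6.69, 18.5 and 16.0, and 28.1 and 27.5 FPKM; nearly all of this was Cd68, while Ptprc and Cd3e were at 0 everywhere and Csf1r was at most 0.019. The 4 endothelial markers summed to at most 0.194 FPKM and none passed the filter. Of the 4 fibroblast and pericyte markers, which summed to 58.1 to 70.2 FPKM, Pdgfra and Pdgfrb made up nearly all, with Acta2 at most 0.074 and Des at most 0.162. The part of these shifts in the changes of the ID genes was not tested, and in bulk RNA fewer cells of a type and less RNA per cell cannot be told apart.

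**Figure D1:**
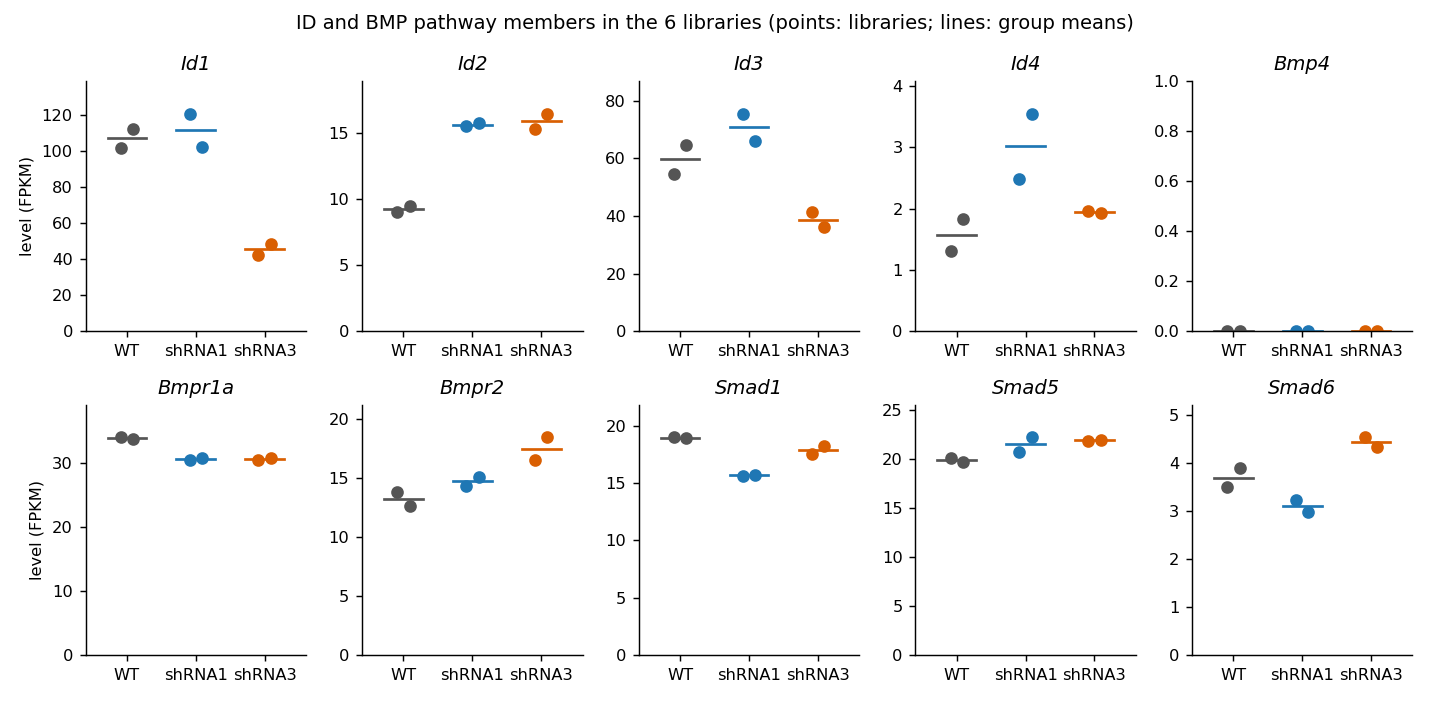
Level of each of the 10 genes in FPKM (vertical axes, each starting at 0) in the WT, shRNA1 and shRNA3 libraries; points are libraries and lines are means of 2. Id2 is at 15.3 to 16.4 FPKM in all hairpin libraries against 9.0 and 9.45 in WT, while Id1 and Id3 are low in shRNA3 alone.

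Across the 6 libraries the order of mean level per transcript length was Id1 (88.2 FPKM), Id3 (56.4), Bmpr1a (31.7), Smad5 (21.1), Smad1 (17.5), Bmpr2 (15.1), Id2 (13.6), Smad6 (3.75), Id4 (2.18) and Bmp4 (0). Id1 and Id3 stood at percentiles 91.5 and 85.6 of the 11079 genes tested, and Id4 stood at percentile 7.19. Neighbours whose ranges over the libraries overlapped were Id1 and Id3, Smad1 and Bmpr2, Bmpr2 and Id2, and Smad6 and Id4. Even so, Id1 exceeded Id3 in each of the 6 libraries.

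Of the 10 genes, 9 reached a mean of 1 FPKM and were tested. Against WT, 6 of these 9 passed the threshold (adjusted p under 0.05) over both hairpins, where 50.0% of all tested genes did; Id2, Id4 and Bmpr2 were higher and Id1, Smad1 and Bmpr1a lower (background 24.1% higher and 25.9% lower). With shRNA1 alone 4 of 9 passed, where 36.0% of all genes did, with Id2 and Id4 higher and Smad1 and Bmpr1a lower (background 17.6% higher and 18.4% lower). With shRNA3 alone 5 of 9 passed, where 55.2% of all genes did, with Id2 and Bmpr2 higher and Id1, Id3 and Bmpr1a lower (background 27.4% higher and 27.8% lower). Between the hairpins 5 of 9 differed, where 42.5% of all genes did; Bmpr2, Smad1 and Smad6 were higher in shRNA3 and Id1 and Id3 lower (background 22.0% higher and 20.5% lower). These counts lie near the background shares, so the number of calls does not set the family apart. The median log2 change of the 9 genes was 0.01, 0.10, 0.13 and 0.02 in these 4 comparisons, against -0.01, -0.01, -0.01 and 0.01 over all tested genes. Of all genes called over both hairpins 48.2% were higher, or 34.3% when each library was rescaled to the same total; with shRNA1 the shares were 49.0% and 34.9%, and with shRNA3 49.7% and 37.6%.

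**Figure D2:**
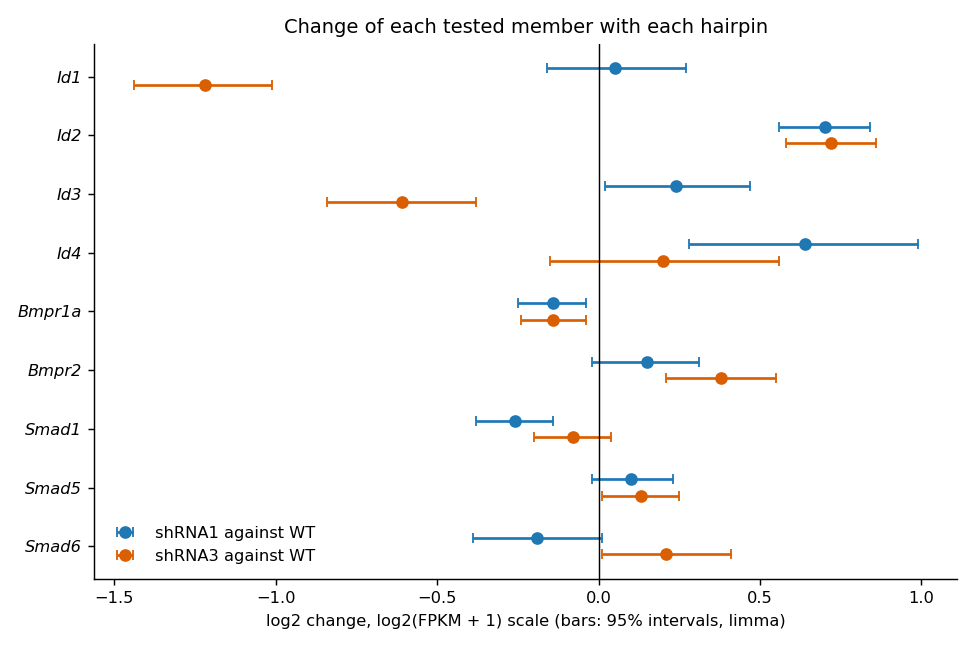
Change of the 9 tested genes against WT on the log2(FPKM + 1) scale (horizontal axis) for shRNA1 and shRNA3; points are limma estimates and bars their 95% intervals, not adjusted for multiple tests. The estimates for Id2 and Bmpr1a lie close together for both hairpins, and those for Id1 and Id3 lie apart.

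Bmp4 (chr14:46383520-46390669, minus strand), a ligand of the pathway, was listed at 0 in each of the 6 libraries, as were 8630 symbols in all but none of 76 ribosomal protein genes. With every value equal, no test could be made. Exons of a gene model on the other strand, Gm15217, overlap it and were also listed at 0. Of the 14 BMP ligands in the files, 5 were at 0 everywhere and only Bmp5 passed the filter. Bmp5, which encodes a BMP of the same subgroup as BMP7, was at 3.14 and 3.39 FPKM in WT, 9.99 and 9.90 in shRNA1, and 5.95 and 5.42 in shRNA3. All hairpin libraries lay above both WT libraries, and both shRNA1 libraries lay above both shRNA3 libraries. Bmp5 rose 3.05-fold with shRNA1 (log2 change 1.36, adjusted p = 1.29e-05, limma) and 1.74-fold with shRNA3 (0.65, adjusted p = 0.000261, limma). The step between the hairpins was also past the threshold (-0.71, adjusted p = 0.000334, limma).

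Bmpr1a (chr14:34410734-34503341, minus strand) encodes the type I receptor ALK3. Its level was 34.1 and 33.8 FPKM in WT, 30.4 and 30.8 in shRNA1, and 30.6 and 30.8 in shRNA3. The hairpin libraries were all slightly below WT and coincided with each other. Bmpr1a fell by 0.14 ± 0.04 (SE) on the log2 scale with shRNA1 (adjusted p = 0.036, limma) and by 0.14 ± 0.04 with shRNA3 (adjusted p = 0.0268, limma), a 1.11-fold decrease in both. The shRNA1 call was lost when any 1 of the 6 libraries was left out (adjusted p 0.0553 to 0.13), and the shRNA3 call when either WT library or either shRNA3 library was (0.0787 to 0.0979). Over both hairpins the call (adjusted p = 0.0157) ended without WT replicate 1 (0.0827) or WT replicate 2 (0.0661) and with the hairpin libraries as 1 group (0.12).

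Bmpr2 (chr1:59763400-59879014, plus strand), the type II receptor, took the opposite direction. It was at 13.8 and 12.6 FPKM in WT, 14.4 and 15.1 in shRNA1, and 16.5 and 18.5 in shRNA3. The 3 groups did not overlap, with shRNA3 the highest. Bmpr2 rose 1.32-fold with shRNA3 (log2 change 0.38 ± 0.07 SE, adjusted p = 0.00281, limma), a call held in all 13 alternatives (adjusted p 0.0019 to 0.0237). With shRNA1 the value was 0.15 ± 0.07 (adjusted p = 0.15, limma). The difference between the hairpins, 0.23 ± 0.07 (adjusted p = 0.0324, limma), was lost without shRNA1 replicate 1 (0.137), shRNA1 replicate 2 (0.0642) or shRNA3 replicate 2 (0.185), with no filter on low values (0.0719) and with equal totals (0.0626). Over both hairpins the call (0.26, adjusted p = 0.00937, limma) ended without WT replicate 2 (0.0763) and with the hairpin libraries as 1 group (0.14).

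Among the 8 BMP receptors and co-receptors tested, of 11 in the files, 1 rose and 2 fell over both hairpins, where 24.1% of all tested genes rose and 25.9% fell. Besides the receptors above, the type II receptor gene Acvr2a, which serves activins and BMPs, was at 8.55 ± 0.439 FPKM in WT, 7.23 ± 0.523 in shRNA1 and 7.20 ± 0.0813 in shRNA3 (SD, n = 2). Its call over both hairpins (log2 change -0.22, adjusted p = 0.023, limma) held in 9 of 14 alternatives.

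Smad1 (chr8:79338395-79399518, minus strand) and Smad5 (chr13:56703010-56742377, plus strand) encode the receptor-activated SMADs of the BMP route. Smad1 was at 18.996 and 18.931 FPKM in WT, 15.7 and 15.7 in shRNA1, and 17.5 and 18.3 in shRNA3. Its shRNA1 libraries were the lowest, and those of shRNA3 lay between the other groups. Smad1 fell 1.21-fold with shRNA1 (log2 change -0.26 ± 0.05 SE, adjusted p = 0.00665, limma), a call held in all 13 alternatives (adjusted p 0.00429 to 0.0359). With shRNA3 the change was -0.08 ± 0.05 (adjusted p = 0.222, limma). The difference between the hairpins (0.18 ± 0.05, adjusted p = 0.025, limma) was lost without shRNA1 replicate 1 (0.0887), shRNA1 replicate 2 (0.0847) or shRNA3 replicate 2 (0.124) and with equal totals (0.0621). The call over both hairpins (-0.17, adjusted p = 0.0148, limma) was lost without WT replicate 1 (0.0761) or WT replicate 2 (0.0678) and with the hairpin libraries as 1 group (0.203).

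Smad5 gave no call in any comparison. It was at 20.1 and 19.8 FPKM in WT, 20.8 and 22.2 in shRNA1, and 21.8 and 22.0 in shRNA3. The WT libraries were the lowest, but the log2 changes of 0.10 ± 0.05 with shRNA1 (adjusted p = 0.166, limma) and 0.13 ± 0.05 with shRNA3 (adjusted p = 0.0688, limma) missed the threshold. The 95% interval for shRNA3 against shRNA1 ran from -0.10 to 0.15.

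Smad6 (chr9:63953076-64022059, minus strand) encodes an inhibitory SMAD that is itself a BMP target and limits receptor signalling. The stretch around its RefSeq start (GRCm38.p6, chr9:64022050-64022119, minus strand, 60 bases before to 10 after) is shown because a palindromic SMAD-binding element, GTCTAGAC, spans the start. The capitals mark that element, with 4 bases before the start and 4 from it.

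Smad6 start: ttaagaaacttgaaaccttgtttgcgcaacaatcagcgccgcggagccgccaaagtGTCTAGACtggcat

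The element reads the same on both strands and contains the SMAD core GTCT on each. It occurs in 70 of 32851 promoter windows of 300 bases (0.213%) and in no other window of these genes, of which 9 of 10 were matched in the RefSeq table. A match in sequence is a description and not a binding site.

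Smad6 was at 3.50 and 3.89 FPKM in WT, 3.24 and 2.98 in shRNA1, and 4.53 and 4.33 in shRNA3. The shRNA1 libraries lay below WT and the shRNA3 libraries above it. Smad6 stood for 158 and 174, 139 and 117, and 216 and 175 fragments. Neither hairpin alone passed the test, at -0.19 ± 0.09 (adjusted p = 0.127, limma) for shRNA1 and 0.21 ± 0.09 (adjusted p = 0.0731, limma) for shRNA3. The hairpins differed from each other 1.42-fold (log2 0.40 ± 0.09, adjusted p = 0.00806, limma), and this held in all 12 alternatives that tested it (adjusted p 0.00786 to 0.0459). Of the 5 BMP SMADs tested, of 6 in the files, only Smad1 was called over both hairpins, where 50.0% of all tested genes were. Smad7, the other inhibitory SMAD and named here after its values were seen, rose with shRNA1 from 5.68 ± 0.211 to 7.20 ± 0.192 FPKM (SD, n = 2; log2 change 0.30, adjusted p = 0.0157, limma) and was at 5.69 ± 0.303 in shRNA3.

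Id2 (chr12:25093799-25097140, minus strand) and Id4 (chr13:48261228-48266026, plus strand) are the ID genes that rose with shRNA1. Sequence upstream of their RefSeq starts (GRCm38.p6) is shown because both hold GGCGCC, a GC-rich element recognised by SMAD1 and SMAD5, which the capitals mark. For Id2 the stretch is chr12:25096254-25096342, minus strand, and lies in an intron of a longer Id2 transcript; for Id4 it is chr13:48260866-48261115, plus strand, the 250 bases before the start.

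Id2 upstream: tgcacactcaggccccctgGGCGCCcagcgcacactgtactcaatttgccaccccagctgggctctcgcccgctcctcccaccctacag

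Id4 upstream: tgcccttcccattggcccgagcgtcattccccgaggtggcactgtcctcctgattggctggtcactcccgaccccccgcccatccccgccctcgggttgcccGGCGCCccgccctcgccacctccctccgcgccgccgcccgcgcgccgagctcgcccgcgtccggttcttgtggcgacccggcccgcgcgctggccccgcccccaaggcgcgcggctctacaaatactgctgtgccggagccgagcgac

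The element begins 231 bases before the Id2 start and 148 before the Id4 start, and it reads the same on both strands. GGCGCC was present in 9.59% of all promoters over 250 bases. Windows of Bmpr1a, Bmpr2 and 1 of 3 Smad5 starts also held it, and those of Id3, Smad1, Smad6 and Bmp4 did not. These windows were 60% to 78.8% GC, above the median of 52.4% over all promoters. Those of Id3 and Bmpr2 lay wholly within annotated exons of the same gene. Those of Id2 (161 bases), Bmpr1a (141), Smad1 (90) and Smad5 starts 2 (42) and 3 (159) lay partly within them. Id1 had no entry in the table. Genes with the element included Id2, which rose, and Bmpr1a, which fell.

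Id2 was at 9.0 and 9.45 FPKM in WT, 15.5 and 15.8 in shRNA1, and 15.3 and 16.4 in shRNA3. All 4 hairpin libraries lay well above both WT libraries, and the hairpin groups overlapped each other. These values stood for 52 and 54, 85 and 79, and 93 and 85 fragments, and the rate per depth was 1.69 times that of WT with shRNA1 (95% interval 1.32 to 2.18) and 1.71 times with shRNA3 (1.34 to 2.2). The log2 change was 0.70 ± 0.06 (SE) with shRNA1 (adjusted p = 0.000123, limma) and 0.72 ± 0.06 with shRNA3 (adjusted p = 5.37e-05, limma). Between the hairpins it was 0.02, with a 95% interval of -0.12 to 0.16. Over both hairpins the change of 0.71 ± 0.05 (adjusted p = 3.6e-05, limma) held in all 14 alternatives (adjusted p 1.69e-05 to 0.00267).

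Id1 (chr2:152736251-152737410, plus strand), the most abundant of the family, was at 102 and 113 FPKM in WT, 121 and 103 in shRNA1, and 42.4 and 48.6 in shRNA3. Of the shRNA1 libraries 1 lay within the WT range and 1 above it, and both shRNA3 libraries were far below all others. With shRNA3 the log2 change was -1.22 ± 0.09 (SE; adjusted p = 3.25e-05, limma), and with shRNA1 it was 0.05 ± 0.09 (adjusted p = 0.682, limma; 95% interval -0.16 to 0.27). The direct comparison of shRNA3 with shRNA1 gave -1.28 ± 0.09 (adjusted p = 6.07e-05, limma). The mean over both hairpins, -0.58 ± 0.08 (adjusted p = 0.000696, limma), came from shRNA3, and its call ended (adjusted p = 0.382; range over 14 alternatives 0.000163 to 0.382) when the 4 hairpin libraries were fitted as 1 group.

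Id3 (chr4:136143497-136145755, plus strand) had the same split in smaller size. It was at 54.7 and 64.6 FPKM in WT, 75.5 and 66.0 in shRNA1, and 41.4 and 36.0 in shRNA3. The shRNA3 libraries were the lowest and the shRNA1 libraries the highest, without overlap. With shRNA3 the log2 change was -0.61 ± 0.10 (SE; adjusted p = 0.00128, limma), and with shRNA1 it was 0.24 ± 0.10 (adjusted p = 0.0889, limma). Between the hairpins the difference was -0.85 ± 0.10 (adjusted p = 0.000475, limma). The shRNA1 value passed the threshold only without WT replicate 2 (0.36, adjusted p = 0.0359; range over 13 alternatives 0.0359 to 0.406).

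Id4 was at 1.31 and 1.84 FPKM in WT, 2.49 and 3.55 in shRNA1, and 1.96 and 1.93 in shRNA3. Both shRNA1 libraries were above all others, and the shRNA3 libraries lay just above WT. These values stood for 31 and 43, 56 and 73, and 49 and 41 fragments. The rate was 1.91 times that of WT with shRNA1 (95% interval 1.42 to 2.57) and 1.24 times with shRNA3 (0.902 to 1.71). The log2 change with shRNA1, 0.64 ± 0.15 (SE; adjusted p = 0.0144, limma), was lost without WT replicate 1 (0.0777) or shRNA1 replicate 2 (0.0813). With shRNA3 it was 0.20 ± 0.15 (adjusted p = 0.288, limma), and the difference between the hairpins was -0.43 ± 0.15 (adjusted p = 0.0527, limma), which passed without WT replicate 1 (0.0425), WT replicate 2 (0.041) or shRNA1 replicate 1 (0.0224) and with equal totals (0.044). The call over both hairpins (0.42 ± 0.13, adjusted p = 0.0304, limma) was lost without WT replicate 1 (0.211), shRNA1 replicate 2 (0.0627), shRNA3 replicate 1 (0.064) or shRNA3 replicate 2 (0.0652), with no filter on low values (0.073) and with the hairpin libraries as 1 group (0.198). An antisense transcript, A330033J07Rik, overlaps Id4 exons but was listed at 0 to 0.074 FPKM, and no source used here tells whether counting took account of strand.

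**Figure D3:**
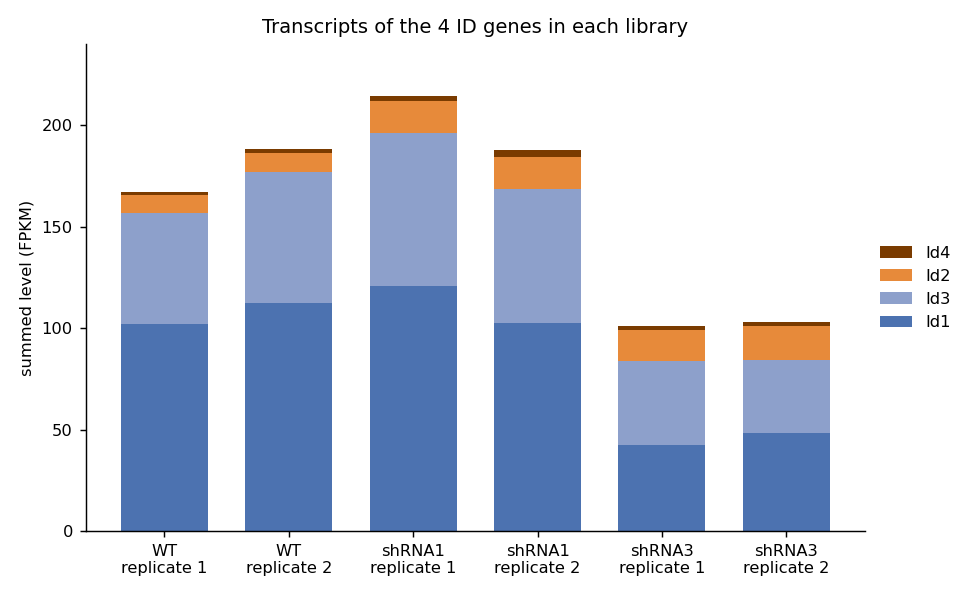
Summed level of the 4 ID genes in FPKM (vertical axis, from 0) in each library, stacked by gene. The 2 shRNA3 libraries reach 101 and 103 FPKM, below the 167 to 214 of the other 4.

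As a pool, the 4 ID genes summed to 167 and 188 FPKM in WT, 214 and 188 in shRNA1, and 101 and 103 in shRNA3. Id2 made up 5.38% and 5.02% of that sum in WT, 7.22% and 8.38% in shRNA1, and 15.1% and 16.0% in shRNA3. The Id2 share was thus highest in shRNA3, where its own level was close to that in shRNA1 and Id1 and Id3 were low. Id1 made up 61.1% and 59.7% of the pool in WT and 42.0% and 47.2% in shRNA3.

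By root mean square distance of log2(FPKM + 1) values, each gene centred on its mean over the 6 libraries, among 10498 genes with a given name, the nearest to Id1 were Egr2 (0.093) and Dusp6 (0.107). Egr2, an early growth response transcription factor, was at 4.04 and 4.37, 4.99 and 4.88, and 1.20 and 1.31 FPKM in WT, shRNA1 and shRNA3. Dusp6, a phosphatase of ERK, was at 99.9 and 99.2, 103 and 99.1, and 45.2 and 47.5 FPKM. Both were near WT or above it with shRNA1 and low with shRNA3, as Id1 was. Because log2(FPKM + 1) understates changes of low genes, the distance of Egr2 also depends on its low level. The nearest to Id2 were the clock repressor gene Cry2 (0.030) and the homeobox gene Otx1 (0.035). Those to Id3 were Cd14 (0.069), a lipopolysaccharide co-receptor, and Nudt1 (0.095), which clears oxidised nucleotides. The nearest to Id4 were Vhl (0.103), a ubiquitin ligase subunit, and the homeobox gene Vax2 (0.105). The 6 points are 2 libraries of each of 3 groups, and this likeness was not tested.

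**Figure D4:**
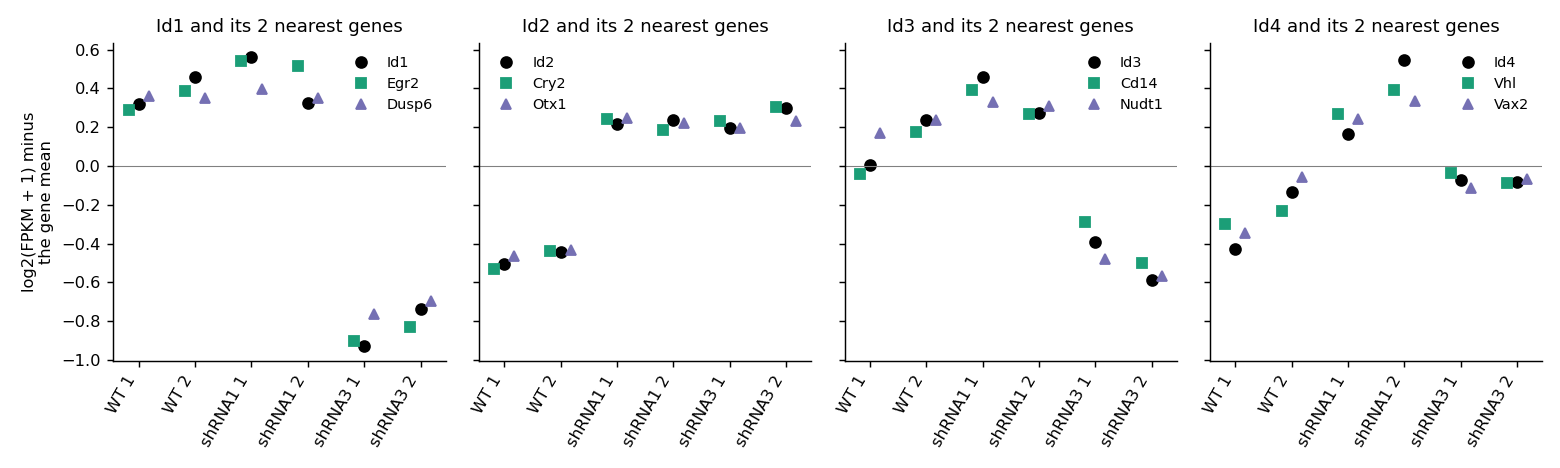
Log2(FPKM + 1) minus the gene's mean (vertical axis) in the 6 libraries for each ID gene and its 2 nearest genes. Id1, Egr2 and Dusp6 drop only in the shRNA3 libraries, and Id2, Cry2 and Otx1 are higher in all 4 hairpin libraries.

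Among extracellular BMP antagonists and modulators, 7 of 18 were tested and 6 were at 0 everywhere. Over both hairpins 5 rose and none fell, with a median log2 change of 0.29, where 24.1% of all tested genes rose and 25.9% fell. With shRNA1 5 rose and with shRNA3 4 rose, where 17.6% and 27.4% of all tested genes did. The filter shaped these counts. Fst, with a mean of 0.679 FPKM in WT, passed it only through its hairpin libraries, while Nog, lower in all hairpin libraries, did not pass it. Fst, which encodes follistatin, a trap of activins and some BMPs, was at 0.754 and 0.605 FPKM in WT, 2.02 and 1.85 in shRNA1, and 2.29 and 2.22 in shRNA3. Its follistatin-like relative Fstl3 rose from 3.23 ± 0.0509 FPKM to 7.18 ± 0.542 and 6.69 ± 0.572 (SD, n = 2). Both genes lay higher in all 4 hairpin libraries, with log2 changes over both hairpins of 0.88 (adjusted p = 0.00023, limma) and 0.91 (adjusted p = 5.8e-05, limma). Crim1, a membrane protein that binds BMPs, rose with shRNA1 to 27.0 ± 0.429 FPKM and with shRNA3 to 43.0 ± 1.5, from 21.2 ± 0.592 (SD, n = 2), and the hairpins differed (0.65, adjusted p = 8.2e-05, limma). Chrd, which encodes the BMP antagonist chordin, rose with shRNA1 (0.42, adjusted p = 0.0044, limma) and was at 0.15 with shRNA3 (adjusted p = 0.131, limma). The other gene called over both hairpins, Nbl1, changed by 0.22 (adjusted p = 0.0191, limma). With shRNA3 alone Nbl1 did not pass (0.15, adjusted p = 0.108, limma). It was named after its values were seen. So was Dand5, an antagonist of NODAL and BMPs, which rose with shRNA3 from 1.97 ± 0.628 to 4.07 ± 0.253 FPKM (SD, n = 2; log2 change 0.79, adjusted p = 0.00474, limma) and was at 1.38 ± 0.381 in shRNA1.

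Of 14 intracellular BMP regulators in the files, 12 were tested. Over both hairpins 2 rose and 5 fell, where 24.1% of all tested genes rose and 25.9% fell. Their median log2 change was -0.10, against -0.01 over all tested genes. The decreases were small. Ctdsp1, a phosphatase that can act on SMADs, went from 66.2 ± 3.18 FPKM to 56.9 ± 0.772 in shRNA1 and 55.6 ± 2.56 in shRNA3 (SD, n = 2; log2 change over both -0.23, adjusted p = 0.00413, limma). The SMAD co-repressor genes Ski (-0.22, adjusted p = 0.00511) and Skil (-0.18, adjusted p = 0.0255) and Rnf111 (-0.19, adjusted p = 0.0173), whose ubiquitin ligase degrades such repressors, also fell in the limma test. Over both hairpins Skil held its call in 9 of 14 alternatives, Rnf111 in 12 and Ski in 13. With shRNA1 alone Rnf111 (-0.12, adjusted p = 0.167, limma) and Skil (-0.19, adjusted p = 0.0517, limma) did not pass. With shRNA3 alone Ski was at -0.14 (adjusted p = 0.0487, limma), a call held in 5 of 13 alternatives. The remaining calls over both hairpins were named after their values were seen. They were Ppm1a, a phosphatase (-0.11, adjusted p = 0.0373, limma), Ctdsp2, a relative of Ctdsp1 (0.16, adjusted p = 0.00957, limma), and Tob1, an antiproliferative BMP regulator (0.17, adjusted p = 0.0289, limma). Ppm1a (-0.04, adjusted p = 0.435, limma) and Tob1 (0.09, adjusted p = 0.254, limma) did not pass with shRNA3 alone. Ctdsp2 did not pass with shRNA1 alone (0.08, adjusted p = 0.198, limma).

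Of 15 BMP targets outside the ID family only 5 were tested, and 1 rose over both hairpins (Junb), 2 with shRNA1 (Junb and Smad7) and 1 with shRNA3 (Runx2, a skeletal transcription factor, log2 change 0.25, adjusted p = 0.0136, limma). Of all tested genes 24.1%, 17.6% and 27.4% rose in these comparisons. Junb, an AP-1 subunit, was at 75.6 and 85.3 FPKM in WT, 172 and 158 in shRNA1, and 80.5 and 78.3 in shRNA3. With shRNA1, where Id1 did not pass the test, Junb rose by a log2 change of 1.03 (adjusted p = 2.33e-05, limma). With shRNA3 it was -0.02 (adjusted p = 0.849, limma), and fitting the hairpins as 1 group ended the call over both (adjusted p = 0.355; range over 14 alternatives 0.00014 to 0.355).

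ID partners, stability factors and cell cycle targets held 17 tested genes of 22, of which 6 rose and 6 fell over both hairpins, where 24.1% of all tested genes rose and 25.9% fell, with a median log2 change of 0.01. Bhlhe40, a helix-loop-helix repressor, rose from 34.1 ± 0.188 FPKM to 73.6 ± 0.409 in shRNA1 and 76.4 ± 1.60 in shRNA3 (SD, n = 2; log2 change 1.11, adjusted p = 6.95e-07, limma). Ets1, an ETS factor, rose from 46.0 ± 2.22 to 62.5 ± 1.07 and 78.8 ± 0.919 FPKM (0.60, adjusted p = 2.52e-05, limma). Cdkn1a, the p21 inhibitor of cyclin-dependent kinases, rose 2.13-fold with shRNA1 and 1.27-fold with shRNA3. Hes1, a helix-loop-helix repressor downstream of Notch, was at 17.1 and 17.7 FPKM in WT, 17.03 and 18.93 in shRNA1, and 6.93 and 7.44 in shRNA3. It fell 2.42-fold with shRNA3 (log2 change -1.17, adjusted p = 1.03e-05, limma) and its shRNA1 libraries spanned the WT range. The E protein genes, whose products ID proteins bind, were picked after their values were seen. Over both hairpins Tcf3 fell by 0.23 (adjusted p = 0.0097), Tcf4 by 0.24 (adjusted p = 0.0024) and Tcf12 by 0.19 (adjusted p = 0.0131) on the log2 scale in the limma test. Tcf4 was at -0.10 with shRNA1 (adjusted p = 0.136, limma) and Tcf12 at -0.08 with shRNA3 (adjusted p = 0.27, limma), and for both the hairpins differed (adjusted p = 0.00343 and 0.0144, limma). Usp1, which encodes a deubiquitinase that stabilises ID proteins and was also picked afterwards, was 1.33-fold lower with shRNA1 (adjusted p = 0.000769, limma) and 1.5-fold lower with shRNA3 (adjusted p = 6.25e-05, limma).

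**Figure D5:**
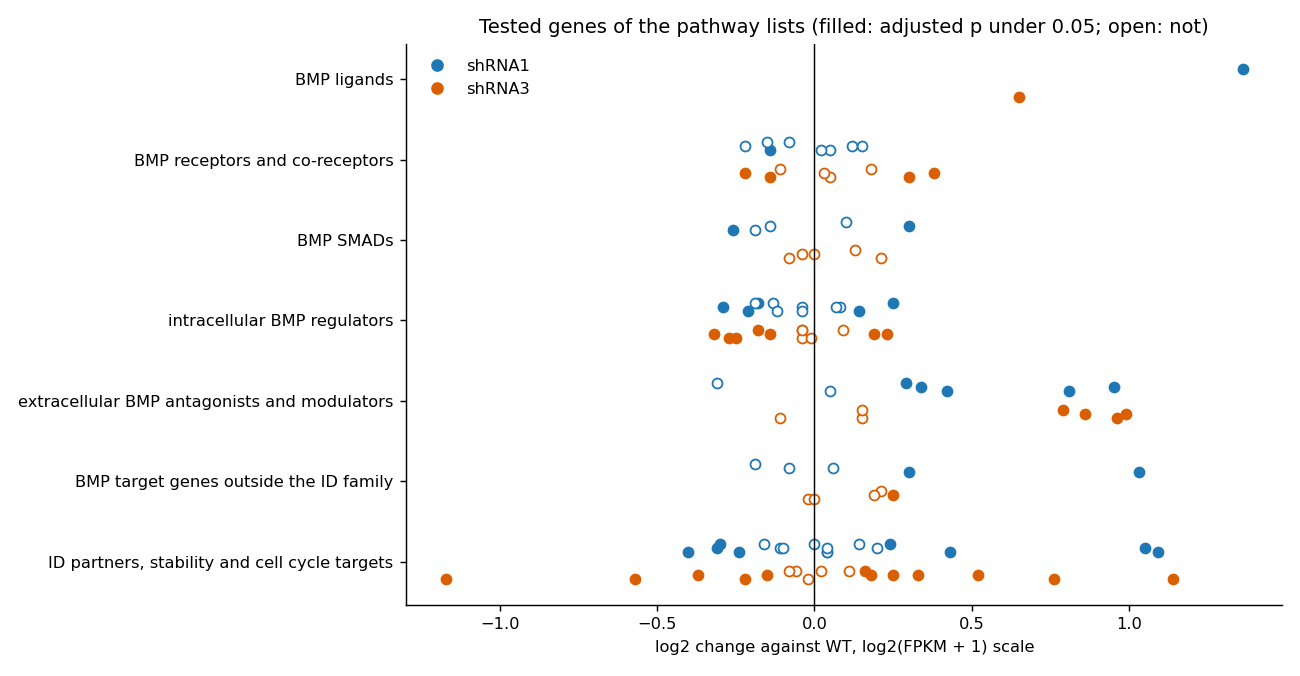
Log2 change against WT (horizontal axis) of each tested gene of the 7 pathway lists, for shRNA1 and shRNA3; filled points passed an adjusted p of 0.05 and open points did not. All filled points of the extracellular antagonists lie above 0, while receptors, SMADs and ID partners lie on both sides. The antagonist gene Nog, lower in all hairpin libraries, was under the filter and is not shown. Fst, of the same list, is shown but passed the filter only through its hairpin libraries.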

How the data were processed

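RNA of 6 libraries of 4T1 cells was isolated with a column kit and prepared with a stranded mRNA kit, per the labels' protocols. The authors deposited 1 table of gene symbols and values per library without naming a unit; the values were taken as FPKM because Cufflinks 2.2.1 is listed in the submitters' processing notes, beside TopHat2 2.0.13, Bowtie2 2.2.3, SAMtools 0.1.19 and mm10. Annotation, strand setting and handling of multiply mapped reads are stated in no source used here. FPKM are relative to the library, so rises of abundant genes lower others.

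The 11079 genes whose mean reached 1 FPKM were fitted on log2(FPKM + 1), which understates changes of low genes, with limma 3.58.1 (R 4.3.3), a trended prior and a means model of 3 groups over all 6 libraries. Tests were two-sided with Benjamini-Hochberg adjustment over all genes tested (threshold 0.05). The fit was tested on simulated data. Where low values were whole multiples of 1 fragment (within 0.05), fragment numbers were recovered; rates have exact binomial 95% intervals. Coordinates come from GENCODE mouse release 21 (GRCm38), promoters from RefSeq (GRCm38.p6).

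The genes, lists and tests were chosen with earlier results of these data known. Named were all 10 genes, up to 4 called genes per list, ranked by size of change over both hairpins, and the 2 nearest genes to each ID gene. Alternatives were pseudocounts of 0.1 and 0.5, no filter, a mean of at least 5 FPKM, rescaling to equal totals, median-of-ratios scaling, the replicate number as a block, all hairpin libraries as 1 group, and leaving out each library.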

Additional observations from a re-analysis of the deposited data

Results flagged for a closer look

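For 13 of the 24 tested genes of the set and of the pathway lists that were named by rule, the 2 hairpins differed from each other in the limma test over all genes, where 42.5% of tested genes did. The list genes were themselves picked by the size of their change over both hairpins in these data. This count can therefore not be weighed against that share. The genes nearest to each ID gene were also chosen on the same values and are not counted. Each value is the log2 change with shRNA3 minus that with shRNA1. Among the ID and BMP pathway genes the differences were -1.28 for Id1, -0.85 for Id3, 0.40 for Smad6, 0.23 for Bmpr2 and 0.18 for Smad1. Among the genes of the pathway lists they were -0.71 for Bmp5, -0.27 for Chrd, 0.65 for Crim1, 0.15 for Ski, -1.04 for Junb, -0.72 for Cdkn1a, 0.33 for Ets1 and -1.21 for Hes1. Id1, Id3 and Hes1 were lower with shRNA3 than in WT, and Bmp5, Junb, Chrd and Cdkn1a were highest with shRNA1. The differences of Id1, Id3, Smad6, Bmp5, Crim1, Junb, Cdkn1a, Ets1 and Hes1 held in every alternative that tested them. The difference of Ski held in 6 of 13 alternatives, those of Smad1 and Bmpr2 in 9 and 8 of 13, and that of Chrd in 10 of 13. The cause of the differences between hairpins was not tested.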

How the results depend on the processing

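Of the values of single pathway genes under all alternatives, 423 kept their side of the threshold, 38 lost it, 8 gained it and none reversed a call. Fitting the 4 hairpin libraries as 1 group lowered the genes called over both hairpins from 5538 to 1513 (798 higher, 715 lower) and the pathway genes called from 6 to 1, which was Id2; that fit counts the gap between the hairpins as spread. Leaving out each library in turn gave 3 to 6 pathway genes over both hairpins (3 without WT replicate 2), 2 to 4 with shRNA1 (2 without WT replicate 1 or shRNA1 replicate 2), 4 to 5 with shRNA3 and 3 to 6 between the hairpins (3 without shRNA1 replicate 2 or shRNA3 replicate 2). The cause was not tested beyond the smaller number of libraries. Rescaling to equal totals made Id3 a call over both hairpins (-0.25, adjusted p = 0.0202, limma), as did leaving out WT replicate 1 (-0.30, adjusted p = 0.0435). Id4 and Smad6 were not tested at a mean of at least 5 FPKM. Depth limits Id4, Id2 and Smad6, whose fragment numbers are low.

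The same replicate numbers appear in each group, but deviations of same-numbered libraries correlated at 0.01 (WT and shRNA1), -0.07 (WT and shRNA3) and 0.20 (shRNA1 and shRNA3), so not every pair passed 0.1 and the numbers were not taken to pair the libraries; the 0.20 is a hint from the data, not the design. With the replicate block 5205 genes were called over both hairpins, 3523 with shRNA1, 5797 with shRNA3 and 4308 between them; the pathway genes called were 6, 3, 4 and 6. Under the block Bmpr1a missed the threshold with shRNA1 (adjusted p = 0.0694) and shRNA3 (0.0533), and Id4 passed it between the hairpins (0.0341, limma).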

Other observations

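Several BMP pathway genes under 1 FPKM were not fitted, and their fragment numbers are given as a description, picked after the values were seen. Hey1, a target of BMP and Notch signalling, had 12 and 7 fragments in WT, 47 and 25 in shRNA1, and 11 and 8 in shRNA3. Its rate per depth was 4.15 times that of WT with shRNA1 (95% interval 2.47 to 7.28) and 1.02 times with shRNA3 (0.511 to 2.04). Atoh8, a helix-loop-helix gene, had 3 and 7, 13 and 7, and 17 and 25 fragments. Its rate was 2.19 times WT with shRNA1 (0.977 to 5.23) and 4.29 times with shRNA3 (2.12 to 9.58). Nog, which encodes the BMP antagonist noggin, had 28 and 23, 13 and 10, and 18 and 12 fragments. Its rate was 0.493 of WT with shRNA1 (0.288 to 0.822) and 0.600 with shRNA3 (0.369 to 0.961), opposite in direction to Fst and Fstl3. Fstl1, of the same list, was higher, at 1.89 times WT with shRNA1 (1.09 to 3.35) and 2.41 times with shRNA3 (1.44 to 4.17). Bmp7 had 7 and 2, 3 and 9, and 17 and 17 fragments. Its rate was 1.46 times WT with shRNA1 (0.564 to 3.92) and 3.86 times with shRNA3 (1.81 to 9.14). These intervals cover counting error only and not the spread between libraries.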
